A study of Rattus norvegicus with 30 samples.

Results

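Diisononyl phthalate (DINP) is a plasticiser, and its effect on the transcripts of cultured rat hepatocytes is described here at 25 mM after 24 h, for every gene on the array. The arrays described are the 10, of 30 in the series, whose titles place them in these groups: 5 from wells dosed with 25 mM DINP for 24 h, and 5 from wells given the vehicle, 1% DMSO, for 24 h. DINP at 100 mM for 24 h, DINP at 25 mM for 48 h and vehicle for 48 h, with 5 arrays each, serve for comparison, and DINP at 100 mM for 48 h enters the shared estimate of the spread. All cells were frozen primary hepatocytes of male Sprague Dawley rats from a commercial supplier, thawed onto collagen under Matrigel and dosed on the third day of culture, per the labels' protocols. The labels call the wells independent and name no donor animals, so p-values measure the spread between wells, which may be technical. Doses are in mM as the labels write them, and whether that is the intended unit was not checked.

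Phthalates of this kind are known in rat liver as peroxisome proliferators. Their monoesters activate PPARα, a nuclear receptor that pairs with a retinoid X receptor and binds a direct repeat of the element AGGTCA with 1 base between the copies. Its known targets in liver are the genes of peroxisomal and mitochondrial fatty acid oxidation, fatty acid omega-hydroxylation and lipid droplets. What else in the transcriptome differed, and in what order, is the subject of the paragraphs that follow.

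Each value is an Affymetrix MAS5 signal, a linear intensity of 1 probe set on 1 array, and differences are of log2(signal + 16), 25 mM minus vehicle, with limma's moderated standard error (n = 5 arrays each). A gene is represented by its brightest probe set. It is called bright where its mean over all 30 arrays lay at or above a signal of 232.2, the 40th percentile of probe sets, and it rose or fell where the Benjamini-Hochberg adjusted p was under 0.05. The arrays correlated at 0.9542 to 0.9589 within a group and at 0.9491 to 0.9557 between the groups. Markers of hepatocytes summed to 779000 to 925000 in the 25 mM arrays and 835000 to 979000 in the vehicle arrays (exact permutation test, two-sided, p = 0.26). A sum with no difference detected does not show an equal share of these cells. Of the 11 markers measured 1 passed limma's test, Tdo2, which fell (-0.90), and after quantile normalization 3 fell. Of the array's own controls, the 5S ribosomal RNA probe set was brighter at 25 mM, at 1582 to 3083 against 880 to 1324 (log2 difference 1.03, exact permutation p = 0.0079, the smallest that 5 against 5 allows, adjusted p = 0.0423 over 16 measures). Its part in the results was not tested. Markers of the other liver cell types are given beside the cytoskeletal genes.

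The response was broad and mostly small. Of 31042 probe sets, 984 rose (3.17%) and 1189 fell (3.83%), 7.0% in all. By gene, 746 of 14217 rose (5.25%) and 707 fell (4.97%), and 733 and 691 of these were among the 10604 bright genes. Dim probe sets were seldom called, 76 of 12417. The lists below held 1277 measured genes, of which 1145 were bright. For them 733 and 691 of 10604 is a closer comparison than the shares over all genes, which are lower. Arrays of the groups did not overlap for 697 genes with higher signals at 25 mM (4.9%) and for 776 with lower ones (5.46%). Among bright genes the median called rise was 0.38 and the median called fall -0.41. In a bulk culture, fewer cells of a type and less RNA per cell cannot be told apart.

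The scaling of the arrays decided which direction was more common, while the largest changes leaned upward throughout. Of the 2173 called probe sets 45.3% were higher at 25 mM as deposited. With the array medians set equal, called centring below, 1159 rose and 602 fell (65.8% higher), and after quantile normalization 1060 rose and 1077 fell (49.6% higher). Changes of at least 2-fold were 68 rises and 22 falls among bright genes, and 84 and 16 after centring, or 72 and 19 after quantile normalization. At a log2 difference of 1.5 or more there were 21 rises and 3 falls.

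**Figure D1:**
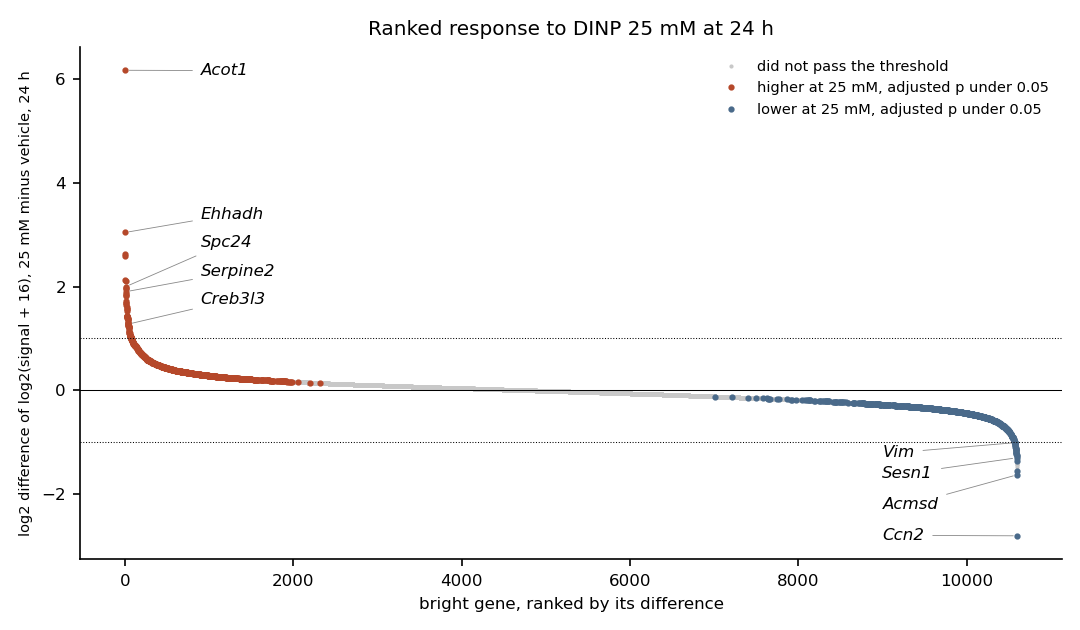
All 10604 bright genes ranked by their log2 difference, DINP 25 mM minus vehicle at 24 h (each point is 1 gene; red and blue are past an adjusted p of 0.05, grey is not; dotted lines mark 2-fold). The curve is steep only at its ends, and the upper end, led by Acot1 and Ehhadh, reaches farther than the lower end, led by Ccn2.

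Fatty acid oxidation genes headed the ranking but did not fill it. Of the 50 largest rises 17 were in the lists of fatty acid oxidation, which take in peroxisomes, ketone bodies, fatty acid uptake, thioesterases and coenzyme A, 4 in those of lipid storage and synthesis, 7 in other lists and 22 in none of the 68 lists examined. Of the 50 largest falls, 14 were in other lists, 35 in none and 1 in a lipid storage list. The lipid lists held 179 bright genes, of which 92 rose and 16 fell, and outside them 641 genes rose and 675 fell. Of the 68 rises of at least 2-fold, 39 lay outside the lipid lists, as did all 22 falls of that size. A place outside these lists does not mean a role outside lipid metabolism. The lipase inhibitor gene Angptl4 and Pdk4 were filed in other lists, and Aig1, which cleaves fatty acid esters, in none.

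The upper end opened with acyl-CoA handling. Acot1, a cytosolic thioesterase that releases fatty acids from coenzyme A, gave signals of 1992, 2686, 3875, 4380 and 2817 in the 25 mM arrays, against 99, 11, 7, 68 and 5 in the vehicle arrays. All 5 vehicle signals lay below the brightness limit and all 25 mM signals far above it, so the change was at least 12.3-fold (adjusted p = 1.32e-14). Ehhadh, the bifunctional enzyme of peroxisomal beta-oxidation, gave 11032, 12052, 12737, 12077 and 13225 in the 25 mM arrays, against 1442, 1189, 1522, 1386 and 1857 in the vehicle arrays. Its groups lay far apart, by 3.05 ± 0.10. Pdk4, the kinase that shuts off pyruvate dehydrogenase, gave 22245, 28035, 23859, 28385 and 18103 in the 25 mM arrays, against 3951, 4522, 3572, 3630 and 3627 in the vehicle arrays. The 25 mM signals of Pdk4 were the more spread of the 2 groups, yet the lowest was several times the highest vehicle signal (difference 2.62 ± 0.11, adjusted p = 1.49e-17).

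Whole pathways of fatty acid burning moved together. Of 21 measured genes of mitochondrial beta-oxidation and the carnitine shuttle 20 rose, against 5.25% of all genes, with a median over bright members of 0.76 where the median of all bright genes was -0.03. Among them were Cpt1b, a muscle-type carnitine palmitoyltransferase (1.62 ± 0.14), and Crat, carnitine acetyltransferase (1.57 ± 0.15). In peroxisomal beta-oxidation 12 of 15 rose, including Hacl1, the lyase of alpha-oxidation (1.83 ± 0.07), and Ech1, a dienoyl-CoA isomerase (1.57 ± 0.07). Of 9 thioesterases 8 rose, among them Acot2 (1.37 ± 0.08) and Acot4 (1.83 ± 0.12). Omega-hydroxylation moved through few members, 3 of 10, with Cyp4a1 at 2.59 ± 0.11 and Cyp4a3 at 2.14 ± 0.11. Probe sets of related family members (Cyp4a, Cyp3a, thioesterases) can bind each other's transcripts, so single members are less certain. Peroxisome biogenesis genes moved less, with 8 of 16 higher, 1 lower and a median of 0.28. Cat, catalase, did not pass the test (0.24 ± 0.09, adjusted p = 0.107), but did so without the 25 mM array of replicate 3 (adjusted p = 0.0247) or the vehicle array of replicate 5 (adjusted p = 0.0223).

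Fabp1, the liver fatty acid binding protein, and Acot4, a peroxisomal thioesterase, are shown with their promoter sequence because a direct repeat of the kind PPARα binds was found in them. Fabp1 gave 19704, 23821, 22275, 22817 and 18247 in the 25 mM arrays, against 7396, 8608, 8953, 7165 and 7554 in the vehicle arrays. Acot4 gave 7638, 8579, 9254, 9175 and 8713 in the 25 mM arrays, against 2677, 2344, 2571, 1867 and 2808 in the vehicle arrays. Neither gene's groups overlapped. In the lines below, capitals mark the direct repeat, read on either strand with at most 1 mismatch to AGGTCA repeated in the same direction with 1 base between. The sequences are RefSeq's, build GRCr8, 5′ to 3′ on the gene's strand. The Fabp1 window is chr4:104749190-104749389 (plus strand), from 150 bases before to 50 after the annotated start, with the repeat beginning 77 bases before the start. The Acot4 window is chr6:109399754-109399903 (plus strand), from 100 before to 50 after, with the repeat beginning 13 bases before.
Fabp1: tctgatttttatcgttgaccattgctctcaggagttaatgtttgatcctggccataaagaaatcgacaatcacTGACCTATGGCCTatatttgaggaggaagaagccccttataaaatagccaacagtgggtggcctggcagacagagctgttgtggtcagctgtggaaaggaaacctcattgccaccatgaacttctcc
Acot4: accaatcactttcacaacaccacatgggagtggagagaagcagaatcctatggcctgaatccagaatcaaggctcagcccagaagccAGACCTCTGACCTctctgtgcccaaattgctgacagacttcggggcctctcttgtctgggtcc

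Promoters of the strongly changed genes were searched for this and 4 other motifs in the 300 bases from 250 before to 50 after the start, on both strands. RefSeq promoters matched 55 of the 68 genes that rose at least 2-fold and 17 of the 22 that fell. Fabp1 and Acot4 were the 2 promoters of the 55 with the direct repeat, a share of 3.64%, against 0 of 17 for the falls and 0.463% of 27457 promoters. A single AGGTCA, which lies within the repeat where no mismatch falls, was in 21.8% of the rises' promoters, 17.6% of the falls' and 15.7% of all. CATTCC, the core bound by TEAD factors, was in 5.45%, 11.8% and 13.9% in the same order. TGACTCA, the AP-1 motif, was in 3.64%, 5.88% and 4.53%, and TGACGTCA, the cyclic AMP response motif, in 0.0%, 0.0% and 1.91%. The changed genes were all bright, and 8884 promoters matched bright genes. Of these, 0.484% held the direct repeat, 12.4% AGGTCA, 11.3% CATTCC, 3.53% TGACTCA and 3.22% TGACGTCA. A match of letters is a description and not evidence of binding.

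Lipid storage genes rose beside the oxidation genes, where 5.25% of all genes rose and 4.97% fell. Of 19 genes of lipid droplets and lipolysis 12 rose and 1 fell (median 0.45). Hilpda, a droplet protein that inhibits triglyceride lipase, gave 11165, 15003, 14862, 14454 and 13318 in the 25 mM arrays, against 3525, 4219, 4270, 3850 and 3020 in the vehicle arrays. Its vehicle signals were all well below its 25 mM signals (1.86 ± 0.11). G0s2, another inhibitor of that lipase (1.35 ± 0.09), Mgll, monoglyceride lipase (0.98 ± 0.09), Fitm2, which helps droplets bud (0.81 ± 0.07), and Plin2, which coats droplets (0.65 ± 0.06), also rose. In glycerol and triglyceride synthesis 8 of 19 rose and 2 fell. Both glycerol 3-phosphate dehydrogenases rose, Gpd2 by 1.53 ± 0.11 and Gpd1 by 1.39 ± 0.09, with the glycerol channel Aqp7 (0.96 ± 0.06), glycerol kinase Gk (0.85 ± 0.11) and the last enzyme of the path, Dgat1 (0.85 ± 0.07). Lpin1, a phosphatidate phosphatase and coactivator, fell (-0.92 ± 0.08).

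Fatty acid synthesis split by its members, with 6 of 20 higher and 6 lower, against 5.25% and 4.97% of all genes. Acaca, which makes malonyl-CoA (-0.77 ± 0.08), Acly, which makes cytosolic acetyl-CoA (-0.57 ± 0.10), and the glucose-responsive factor Mlxipl (-0.59 ± 0.13) fell. Elovl6, an elongase (0.73 ± 0.12), and Me1, the malic enzyme that supplies NADPH (0.57 ± 0.07), rose. Of 20 genes of apolipoproteins and lipoprotein handling 4 rose and 1 fell. The lipase inhibitors Angptl4 (1.73 ± 0.09) and Angptl8 (0.93 ± 0.09) and the lipid transfer protein Mttp (0.52 ± 0.06) rose, and Apoa5 fell (-0.48 ± 0.06).

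Several of the largest rises lay outside the lipid lists. Spc24, a subunit of the Ndc80 kinetochore complex, gave 9671, 12444, 11568, 11305 and 9632 in the 25 mM arrays, against 2222, 2586, 3354, 2610 and 2891 in the vehicle arrays. Every 25 mM signal was well above every vehicle signal (difference 2.00 ± 0.12, adjusted p = 1.42e-14). Of 30 measured genes of mitosis and the kinetochore, Spc24 was the only 1 that passed the test, and 13 of the 30 were bright. Serpine2, protease nexin-1, an inhibitor of thrombin and plasminogen activators, gave 2454, 2080, 2163, 2540 and 2197 in the 25 mM arrays, against 630, 436, 494, 762 and 737 in the vehicle arrays. The highest vehicle signal was 762 and the lowest 25 mM signal 2080 (difference 1.90 ± 0.12). Slc6a13, a transporter of GABA and taurine, gave 3691, 4341, 4542, 4215 and 4114 in the 25 mM arrays, against 1646, 1534, 1418, 1326 and 1975 in the vehicle arrays. Its groups were also apart, by 1.41 ± 0.09. Creb3l3, a liver bZIP factor anchored in the endoplasmic reticulum, gave 18700, 19695, 20794, 22266 and 19241 in the 25 mM arrays, against 7871, 8369, 8103, 8185 and 8934 in the vehicle arrays. It stood at 36 among the 1424 called bright genes ranked from the highest difference (1.28 ± 0.07). Aifm2, a ubiquinone reductase (1.43 ± 0.32), Aig1, which cleaves fatty acid esters of hydroxy fatty acids (1.38 ± 0.06), and Lrrc39, a leucine-rich repeat protein (1.69 ± 0.12), were also among the 30 largest rises.

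Some large rises began from dim vehicle signals and are given as bounds. Ucp2, a mitochondrial uncoupling protein, had signals of 253 to 598 in the 25 mM arrays and 66 to 198 in the vehicle arrays. The vehicle signals were all below the brightness limit, and the rise was at least 1.94-fold (adjusted p = 0.00121). Dnajb3, a cochaperone gene, gave 453, 515, 488, 393 and 351 in the 25 mM arrays, against 172, 261, 15, 158 and 58 in the vehicle arrays. The vehicle group was again dim, with 1 of its 5 arrays above the limit, and the rise was at least 1.78-fold (adjusted p = 3.38e-04). Ltb, lymphotoxin beta, a TNF family member (1.43 ± 0.21), and Abhd15, a hydrolase-fold gene (1.41 ± 0.17), were also among the 30 largest rises. All 5 vehicle signals of Ltb, at 116 to 218, lay below the brightness limit too, and no bound was computed for it. Those of Abhd15, at 333 to 532, lay above the limit.

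**Figure D2:**
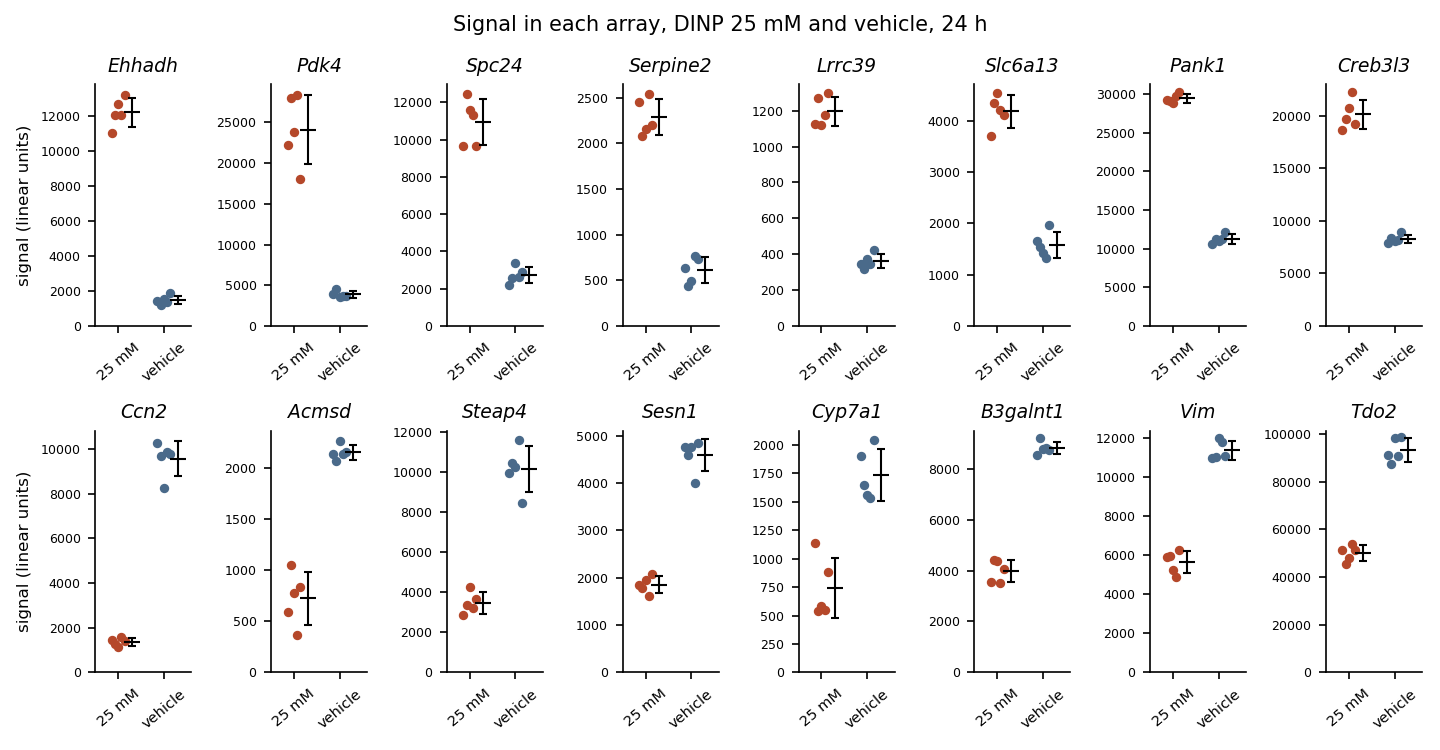
Signal in each array (linear units; points are arrays, horizontal and vertical bars the mean ± SD of 5) of 16 genes at 24 h, DINP 25 mM on the left and vehicle on the right of each panel. The upper row holds genes that rose and the lower row genes that fell, and the groups do not overlap in any of the 16 panels.

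Some genes of coenzyme A synthesis and breakdown rose, where 5.25% of all genes rose and 4.97% fell. Pank1, the kinase of the first step of coenzyme A synthesis, gave 29271, 29148, 28842, 29748 and 30250 in the 25 mM arrays, against 10561, 11255, 10929, 11201 and 12198 in the vehicle arrays. The 5 signals of each group lay within a narrow band, and the difference of 1.39 ± 0.05 had among the smallest adjusted p (adjusted p = 7.94e-20). Of 16 genes of coenzyme A synthesis and breakdown 5 rose and 2 fell, the other rises being Nudt7, a peroxisomal hydrolase of coenzyme A (1.07 ± 0.06), Vnn1, a pantetheinase (1.00 ± 0.07), Slc25a42, the mitochondrial coenzyme A carrier (0.89 ± 0.12), and Ppcs, the next synthetic enzyme after the kinase (0.54 ± 0.05). The falls, of the acetyl-CoA and propionyl-CoA synthetases Acss2 (-0.25 ± 0.06) and Acss3 (-0.30 ± 0.09), were 0 after centring. They were 1 without the 25 mM array of replicate 2, 3 or 4, and 1 without the vehicle array of replicate 2, 3 or 5.

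Small rises ran through the mitochondrial lists, and through the proteasome list beside them. Over all genes 5.25% rose and 4.97% fell. Of 32 genes of the respiratory chain and ATP synthase 14 rose, with a median of 0.17, among them Cyc1 of complex III (0.32 ± 0.06), Ndufs3 of complex I (0.29 ± 0.05) and Uqcrc1 of complex III (0.28 ± 0.05). That count was 8 after quantile normalization, 6 without the trend on mean signal, 7 without the 25 mM array of replicate 4 and 8 without the vehicle array of replicate 4. Of 34 mitochondrial ribosomal proteins 13 rose, including Mrps18a (0.47 ± 0.07) and Mrpl44 (0.41 ± 0.08). It was 5 without the trend, 7 in a fit of only the compared groups, 7 after quantile normalization, and 6 without the 25 mM array of replicate 2 or 4 or the vehicle array of replicate 4 or 5. Among 22 mitochondrial carriers 7 rose, such as Slc25a10, the dicarboxylate carrier (0.66 ± 0.07), and Mpc2, a subunit of the pyruvate carrier (0.59 ± 0.06). The 2 that fell were Slc25a15, the ornithine carrier (-0.70 ± 0.05), and Slc25a33, a pyrimidine nucleotide carrier (-0.62 ± 0.10). Of 25 cytosolic ribosomal proteins 0 passed limma's test, and 4 were higher and 0 lower at an unadjusted p under 0.05. Outside the mitochondrion, 6 of 35 proteasome genes rose and 0 fell, with a median of 0.11. At an unadjusted p under 0.05, 14 of them were higher and 0 lower. The rises were 3 without the trend, after quantile normalization or without the vehicle array of replicate 4.

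The lower end of the ranking was headed by Ccn2, also called connective tissue growth factor, a secreted matrix protein and a standard target of the YAP and TAZ coactivators. Ccn2 gave 1432, 1250, 1119, 1597 and 1395 in the 25 mM arrays, against 10277, 9671, 8249, 9875 and 9761 in the vehicle arrays. Each vehicle signal was more than 5 times each 25 mM signal, and the difference was -2.81 ± 0.09 (adjusted p = 2.81e-20). YAP and TAZ act through TEAD factors, which bind CATTCC. The Ccn2 promoter is shown because it held 3 copies, which 29 of 27457 promoters matched or exceeded (0.106%). Ccn2's own was the only 1 with 3 or more among the 17 promoters of genes that fell at least 2-fold. Of the 55 promoters of genes that rose 0 had as many. Capitals mark the copies on the strand opposite to that printed, so they read GGAATG. They begin 92, 101 and 166 bases before the start. The window is chr1:22624565-22624814 (minus strand, RefSeq, GRCr8), from 200 bases before to 50 after the start.
Ccn2: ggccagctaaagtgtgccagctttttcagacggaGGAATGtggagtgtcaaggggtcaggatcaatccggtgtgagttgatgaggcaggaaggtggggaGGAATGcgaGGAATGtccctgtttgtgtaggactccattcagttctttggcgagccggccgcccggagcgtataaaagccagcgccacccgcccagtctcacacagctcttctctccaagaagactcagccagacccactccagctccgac

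Other genes of the cytoskeleton, adhesion and signalling were lower. Of 26 measured YAP and TAZ targets 6 fell, with a median over bright members of -0.23. Over all genes 4.97% fell, and of 10604 bright genes 691 fell. After centring 2 rose and 4 fell, and after quantile normalization 1 rose and 5 fell. Tead1, a TEAD factor (-0.61 ± 0.08), Amotl2, an angiomotin that binds YAP (-0.47 ± 0.10), and Nt5e, which makes adenosine (-0.38 ± 0.07), were members that fell. Of 29 immediate early and MAPK feedback genes 6 fell, or 4 after centring, including Klf6 (-0.82 ± 0.07), Myc (-0.62 ± 0.10), Ier3 (-0.48 ± 0.07) and Jun (-0.36 ± 0.07), all transcription factors but Ier3, a survival gene. The call of Jun ended after centring (adjusted p = 0.0507).

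Vim, the intermediate filament protein vimentin, gave 5916, 5963, 5239, 4892 and 6267 in the 25 mM arrays, against 10965, 11024, 12009, 11800 and 11091 in the vehicle arrays. No 25 mM signal came near the lowest vehicle signal (difference -1.01 ± 0.11). Vim is also a marker of stellate cells and fibroblasts, whose 15 listed markers summed to 10300 to 12200 in the 25 mM arrays and 16300 to 17700 in the vehicle arrays (log2 difference -0.58, exact permutation p = 0.0079, adjusted p = 0.0423). Vim was the only 1 of the 15 to pass the test. Without it the other 14 summed to 5372 to 6321 in the 25 mM arrays and 5143 to 6660 in the vehicle arrays (difference 0.02, p = 0.8 by the exact permutation test). Of the 15 markers 6 were below the brightness limit, Col1a2, Lrat, Lum, Pdgfra, Pdgfrb and Tagln, and no signal in the file is 0. Kupffer cell and macrophage markers summed to 32100 to 35100 in the 25 mM arrays and 30700 to 32000 in the vehicle arrays (difference 0.10, exact permutation p = 0.0079, adjusted p = 0.0423). Of those 14 markers, Adgre1, Cd163 and Ptprc were below the brightness limit, and Cd14 alone passed the test (0.25 ± 0.05). The part of the Kupffer cell sum in the results was not tested.

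Adhesion and matrix genes carried several of the falls, where 4.97% of all genes fell and 5.25% rose. Of 27 genes of integrins, cadherins and tight junctions 6 fell and 2 rose, and after centring 4 fell and 4 rose. The rises were 1 without the trend, and 1 without the 25 mM array of replicate 1 or 3 or the vehicle array of replicate 1 or 4. Cdh2, N-cadherin (-0.84 ± 0.09), Cldn3, a tight junction claudin (-0.64 ± 0.09), and Cdh1, E-cadherin (-0.57 ± 0.10), fell, and the gap junction protein Gjb2 rose (0.71 ± 0.09). Of 35 matrix and TGF-beta genes 4 fell, among them Lox, which crosslinks collagen (-0.68 ± 0.17), and Fn1, fibronectin (-0.68 ± 0.09), and 2 fell without the vehicle array of replicate 4. Of 30 genes of SRF and actin 5 fell, such as Flna, an actin crosslinker (-0.60 ± 0.15), and 2 fell after centring. Among the 30 largest falls were also Carmil1, a regulator of actin capping (-1.23 ± 0.28), and Cdc42ep2, an effector of Cdc42 (-1.04 ± 0.09).

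The other large falls spread over unrelated functions. Acmsd, the enzyme that diverts tryptophan breakdown away from NAD, gave 592, 1054, 776, 369 and 831 in the 25 mM arrays, against 2130, 2070, 2264, 2133 and 2158 in the vehicle arrays. The vehicle signals lay within a narrow band, while the 25 mM signals were more spread and all lower (-1.63 ± 0.17). Steap4, a metalloreductase, gave 2844, 3373, 4278, 3204 and 3662 in the 25 mM arrays, against 9973, 10448, 10235, 11616 and 8439 in the vehicle arrays. No 25 mM signal reached the lowest vehicle signal of Steap4 (-1.55 ± 0.14). Sesn1, a sestrin and p53 target, gave 1838, 1793, 1961, 1605 and 2070 in the 25 mM arrays, against 4760, 4583, 4755, 4001 and 4850 in the vehicle arrays. Its groups were apart by -1.30 ± 0.11. Hao2, a peroxisomal hydroxyacid oxidase (-1.19 ± 0.11), fell. The glycosphingolipid transferases B4galt5 (-1.19 ± 0.13) and B3galnt1 (-1.15 ± 0.08), the ion channel genes Kcnma1 (-1.02 ± 0.23) and Abcc9 (-1.05 ± 0.27), the adenosine receptor Adora2b (-0.93 ± 0.15) and the glycolytic regulator Pfkfb3 (-0.93 ± 0.20) also fell.

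Bile acid genes moved in both directions, where 5.25% of all genes rose and 4.97% fell. Cyp7a1, the first and limiting step of the classical bile acid route, gave 1141, 539, 584, 551 and 884 in the 25 mM arrays, against 1902, 1647, 1559, 1532 and 2044 in the vehicle arrays. Its 25 mM signals were spread but all lower (-1.27 ± 0.17). Of 12 genes of bile acid synthesis and conjugation 4 fell, including Akr1d1, a steroid reductase (-0.82 ± 0.21), and Cyp27a1, of the alternative route (-0.42 ± 0.05), and 3 rose, including Nr1h4, the bile acid receptor FXR (0.75 ± 0.09), and Cyp8b1, which makes cholic acid (0.46 ± 0.08). Among 20 uptake and export transporters 4 fell and 3 rose. The canalicular exporters Abcb4, for phospholipid (-0.79 ± 0.10), and Abcc2, for conjugates (-0.76 ± 0.07), fell, as did the cholesterol exporter Abca1 (-0.62 ± 0.10), and the sterol exporter Abcg5 rose (0.69 ± 0.14).

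Amino acid and glucose metabolism were likewise divided, beside 5.25% of all genes higher and 4.97% lower. Tdo2, which opens the tryptophan ring, gave 51419, 45401, 48132, 53860 and 51123 in the 25 mM arrays, against 91134, 87257, 98138, 90787 and 98521 in the vehicle arrays. Every 25 mM signal was far below every vehicle signal, by -0.90 ± 0.07. Of 32 genes of amino acid breakdown 9 rose and 5 fell. Uroc1 of histidine breakdown (0.86 ± 0.10), Aass of lysine breakdown (0.66 ± 0.09) and Agxt, the peroxisomal aminotransferase for glyoxylate (0.56 ± 0.07), rose, whereas Tat for tyrosine (-0.92 ± 0.09), Cth for cysteine synthesis (-0.65 ± 0.08) and Prodh for proline (-0.61 ± 0.08) fell. Of 18 genes of gluconeogenesis and glycogen 5 rose and 4 fell. Gys2, liver glycogen synthase (0.77 ± 0.06), Fbp1, fructose bisphosphatase (0.76 ± 0.07), and Pc, pyruvate carboxylase (0.54 ± 0.09), rose, and the coactivator Ppargc1a (-0.75 ± 0.13) and the glycogen targeting subunit Ppp1r3b (-0.52 ± 0.12) fell.

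Regulators moved in both directions, beside 5.25% of all genes higher and 4.97% lower. Rxrg, a retinoid X receptor known mainly from muscle and brain, gave 5077, 5819, 5212, 4551 and 5471 in the 25 mM arrays, against 2491, 2804, 2294, 2083 and 3059 in the vehicle arrays (1.04 ± 0.10). Every 25 mM signal of Rxrg was above every vehicle signal. Of 23 liver-enriched transcription factors 3 rose, Creb3l3, Hlf (0.56 ± 0.08) and Cebpb (0.44 ± 0.07), and 2 fell, Onecut1 (-0.91 ± 0.23) and Foxa2 (-0.51 ± 0.10). Nr1i2, the xenobiotic receptor PXR, rose (0.36 ± 0.07) and the glucocorticoid receptor Nr3c1 fell (-0.32 ± 0.07). Ppara did not pass the test, with a difference of -0.70 ± 0.42 (adjusted p = 0.425) on a dim probe set. Nor did Rxra (-0.15 ± 0.33, adjusted p = 0.893), Nr1i3, the receptor CAR (0.10 ± 0.07, adjusted p = 0.458), or Fgf21, a hormone known as a PPARα target (0.38 ± 0.20, adjusted p = 0.363).

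Inflammatory, chaperone and metal lists differed in how many members were called, where 5.25% of all genes rose and 4.97% fell. Of 29 genes of interleukin-1, TNF and NF-kappaB signalling 3 fell and 1 rose: the neutrophil chemokine Cxcl1 (-0.78 ± 0.15), the feedback inhibitor Tnfaip3 (-0.53 ± 0.09) and the interleukin-1 decoy receptor Il1r2 (-0.68 ± 0.20) fell, and the chemokine Cxcl12 rose (0.79 ± 0.14). The call of Il1r2 ended after centring (adjusted p = 0.0805) and without the trend (0.0602). It also ended without the 25 mM array of replicate 1 (0.0794), 2 (0.0542) or 3 (0.0794), and without the vehicle array of replicate 1 (0.085), 3 (0.0556) or 4 (0.0925). Of 25 interferon-stimulated genes 0 passed limma's test, and 4 were higher and 2 lower at an unadjusted p under 0.05. Of 20 heat shock chaperones 2 rose, such as mitochondrial Hspe1 (0.31 ± 0.06), and 1, Dnajb4, fell (-0.61 ± 0.10). Of 26 iron, heme and metal genes 4 fell, including the transporters Slc39a14 (-0.49 ± 0.08) and Slc40a1 (-0.46 ± 0.08), and 3 rose, including Alad of heme synthesis (0.70 ± 0.10), or 5 without the vehicle array of replicate 1.

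Drug metabolism genes rose and fell by list, where 5.25% of all genes rose and 4.97% fell. Of 17 CAR-type genes 5 rose and 1 fell, the rises including Aldh1a1, a retinal dehydrogenase (1.00 ± 0.07), and Ephx1, microsomal epoxide hydrolase (0.36 ± 0.06). The rises were 3 without the trend, without the 25 mM array of replicate 1, 2 or 4, or without the vehicle array of replicate 2. Of 16 UDP-glucuronosyltransferases, sulfotransferases and their suppliers 4 fell, among them Ugt2b1 (-0.55 ± 0.12), and 1 rose, the sulfotransferase Sult1c3 (1.04 ± 0.12). The falls were 1 after centring, and 2 without the trend, without the 25 mM array of replicate 3 or 4, or without the vehicle array of replicate 3 or 5. Of 7 genes of the aryl hydrocarbon receptor 0 passed limma's test, with 0 higher and 0 lower at an unadjusted p under 0.05. Cyp1a1, its best known target, had signals of 37560 to 41376 in the 25 mM arrays and 41476 to 46210 in the vehicle arrays (-0.18 ± 0.12, adjusted p = 0.484), groups that narrowly did not overlap. Cyp3a23-3a1, a PXR target, differed by 0.17 ± 0.06 (adjusted p = 0.0741), and passed the test without the 25 mM array of replicate 3 (adjusted p = 0.0373) or the vehicle array of replicate 5 (adjusted p = 0.0341). It also passed limma's test with array weights (adjusted p = 0.0375), with only bright probe sets (0.0313) and after quantile normalization (0.0495).

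Antioxidant genes gave a count that single arrays and the scaling moved. Over all genes 4.97% fell and 5.25% rose. Of 21 NRF2 and glutathione genes 6 fell, among them Gsta3, a glutathione transferase (-0.51 ± 0.07), and Srxn1, sulfiredoxin (-0.26 ± 0.06), and 2 rose, among them Me1. After centring the counts were 1 lower and 1 higher, and without the trend 3 and 1. The falls were 3 without the 25 mM array of replicate 3, 4 without that of replicate 2, 2 without that of replicate 4, and 2 without the vehicle array of replicate 3. They were 4 without the vehicle array of replicate 1, 2, 4 or 5, and leaving out any array but the 25 mM one of replicate 3 or the vehicle one of replicate 5 left 1 rise.

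Some growth genes rose. Of 33 genes of G1/S and DNA replication 4 rose, against 5.25% of all genes. The other 29 did not pass the test, and 26 of the 33 were bright. Mcm10, a replication initiation factor (1.21 ± 0.23), Ung, the uracil DNA glycosylase (0.92 ± 0.15), and Ccnd1, cyclin D1 (0.70 ± 0.13), were among the 4. Of 19 p53 targets 5 fell, against 4.97% of all genes, with Tp53inp1 (-0.70 ± 0.10) beside Sesn1. The 2 that rose included Phlda3 (0.63 ± 0.10). The falls were 2 after centring, and the rises 1 after quantile normalization and 3 after centring.

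**Figure D3:**
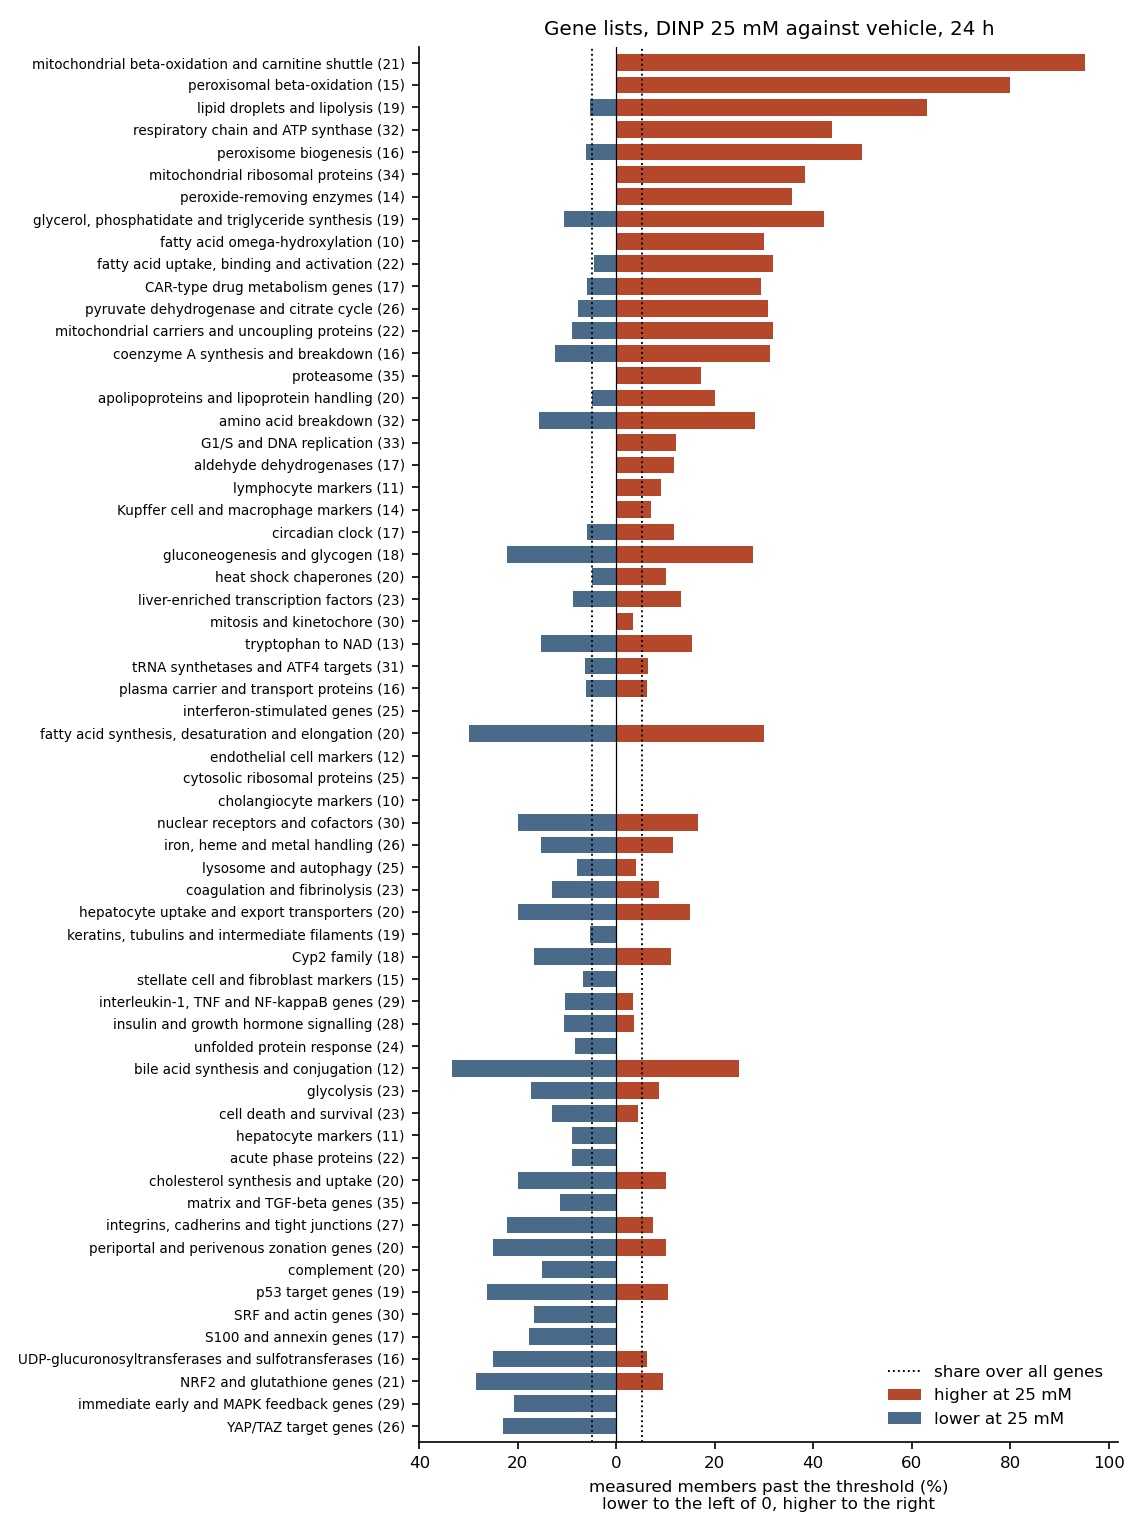
Share of each list's measured members (in parentheses) that passed the test at 24 h, higher at DINP 25 mM to the right of 0 and lower to the left, for lists of 10 or more members. Dotted lines mark the shares over all genes, dim ones included, 5.25% higher and 4.97% lower. Of bright genes alone 733 of 10604 were higher and 691 lower, which are larger shares. The upper bars, led by mitochondrial beta-oxidation (20 of 21), pass farther beyond the lines than the lower bars, where YAP/TAZ targets have 6 of 26 lower.

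DINP at 100 mM for 24 h was compared with 25 mM to ask whether the response grew with dose. Of 31042 probe sets 2 differed between the doses (0.00644%), both higher at 100 mM, while 1325 had an unadjusted p under 0.05. Ccn2 averaged 9567 ± 772 in vehicle arrays, 1358 ± 182 at 25 mM and 2185 ± 255 at 100 mM (SD, n = 5 each). It was thus lower at both doses and less so at the higher, by 0.68 ± 0.09 between the doses (adjusted p = 0.00127). The other was a second probe set of Ddx54, an RNA helicase gene, at 1.505 ± 0.228 (adjusted p = 0.00354), while that gene's brightest probe set differed by -0.14 at 25 mM and -0.19 at 100 mM from vehicle (named here after its values were seen). In a fit of only the compared groups 0 probe sets passed, and Ccn2 had an adjusted p of 0.219.

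Against the same vehicle arrays, the 100 mM values stood beside those at 25 mM as follows. Ehhadh differed from vehicle by 3.05 at 25 mM and 2.75 at 100 mM, Spc24 by 2.00 and 1.71, Pank1 by 1.39 and 1.22, and Serpine2 by 1.90 and 1.81. Among the falls, Acmsd differed by -1.63 at 25 mM and -1.36 at 100 mM, Cyp7a1 by -1.27 and -1.21, and Vim by -1.01 and -0.79. None of these genes passed the test between the doses. They were named for the size of their 25 mM difference, and that choice favours smaller values at another dose. Of the 90 bright genes changed at least 2-fold at 25 mM, chosen likewise, 79 differed less at 100 mM. Crat (1.567 and 1.615) and Vnn1 (1.004 and 1.102) differed more at 100 mM. At 100 mM 715 of the 10604 bright genes rose (6.74%) and 602 fell (5.68%), where 733 and 691 of the same genes did at 25 mM. The vehicle arrays are shared, so the values at the 2 doses are not independent.

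After 48 h, in separate wells with their own vehicle, 914 of the 10604 bright genes rose (8.62%) and 1118 fell (10.5%) at 25 mM. At 24 h 733 and 691 of the same genes did. Of the 733 bright genes that rose at 24 h 555 also rose at 48 h, and of the 691 that fell 484 also fell. The 1 gene called in opposite directions was Tcea3, an elongation factor gene, at -0.36 at 24 h and 0.33 at 48 h (named after its values were seen), and after centring its adjusted p at 24 h was 0.106. Over the 10604 bright genes the differences at the 2 times correlated at 0.639, with no arrays in common but the same platform and probe sets. Serpine2 had 1.90 at 24 h and 1.26 at 48 h, and Acmsd had -1.63 and -1.23, whereas Spc24 was larger at 48 h, at 2.00 and 2.48. These genes were named for the size of their 24 h difference, which favours smaller values at another time.

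**Figure D4:**
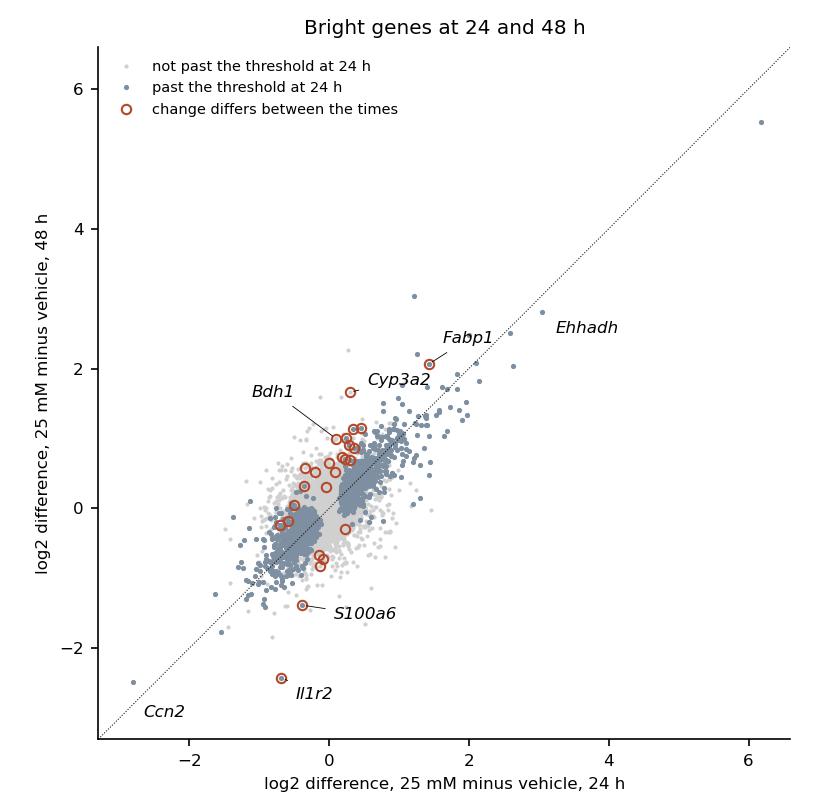
Log2 difference of each bright gene, DINP 25 mM minus vehicle, at 24 h (x axis) and 48 h (y axis), with the line of equality dotted; blue points passed the test at 24 h and red rings mark probe sets whose change differed between the times. Most ringed genes, such as Cyp3a2 and Bdh1, lie above the line, and Il1r2 and S100a6 lie below it.

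The change at 25 mM differed between the times for 30 probe sets of 31042 (0.0966%), 22 of them more positive at 48 h and 8 more negative, with 2163 at an unadjusted p under 0.05. Cyp3a2, a male-type cytochrome P450, averaged 7174 ± 642 at 25 mM and 5900 ± 1014 in vehicle at 24 h, and 6579 ± 1108 at 25 mM and 2065 ± 321 in vehicle at 48 h. The difference between its changes was 1.37 ± 0.20 (adjusted p = 0.00113), and its 25 mM means were close at both times while its vehicle mean was lower at 48 h. Bdh1, a ketone body enzyme, averaged 2501 ± 258 at 25 mM and 2329 ± 166 in vehicle at 24 h, and 3128 ± 229 at 25 mM and 1581 ± 327 in vehicle at 48 h (0.90 ± 0.14). Afm, the plasma vitamin E carrier afamin, had the smallest adjusted p of the 30 (0.77 ± 0.09, adjusted p = 8.84e-05). For Fabp1 the difference was larger at 48 h, by 0.64 ± 0.11, a call that ended after centring (adjusted p = 0.159) and without the trend.

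Differences that were more negative at 48 h included those of an inflammatory decoy receptor and a calcium-binding protein. Il1r2, the decoy receptor for interleukin-1, averaged 2278 ± 439 at 25 mM and 3670 ± 724 in vehicle at 24 h, and 541 ± 113 at 25 mM and 3029 ± 880 in vehicle at 48 h. Its change differed by -1.74 ± 0.28 (adjusted p = 0.0025). S100a6 averaged 16563 ± 2307 at 25 mM and 21599 ± 2380 in vehicle at 24 h, and 7144 ± 212 at 25 mM and 18834 ± 2803 in vehicle at 48 h, a difference between the times of -0.998 ± 0.158 (adjusted p = 0.00233). For both genes the 48 h groups were farther apart than the 24 h groups. Time in culture and time with DINP pass together in these groups, and their parts cannot be told apart.

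**Figure D5:**
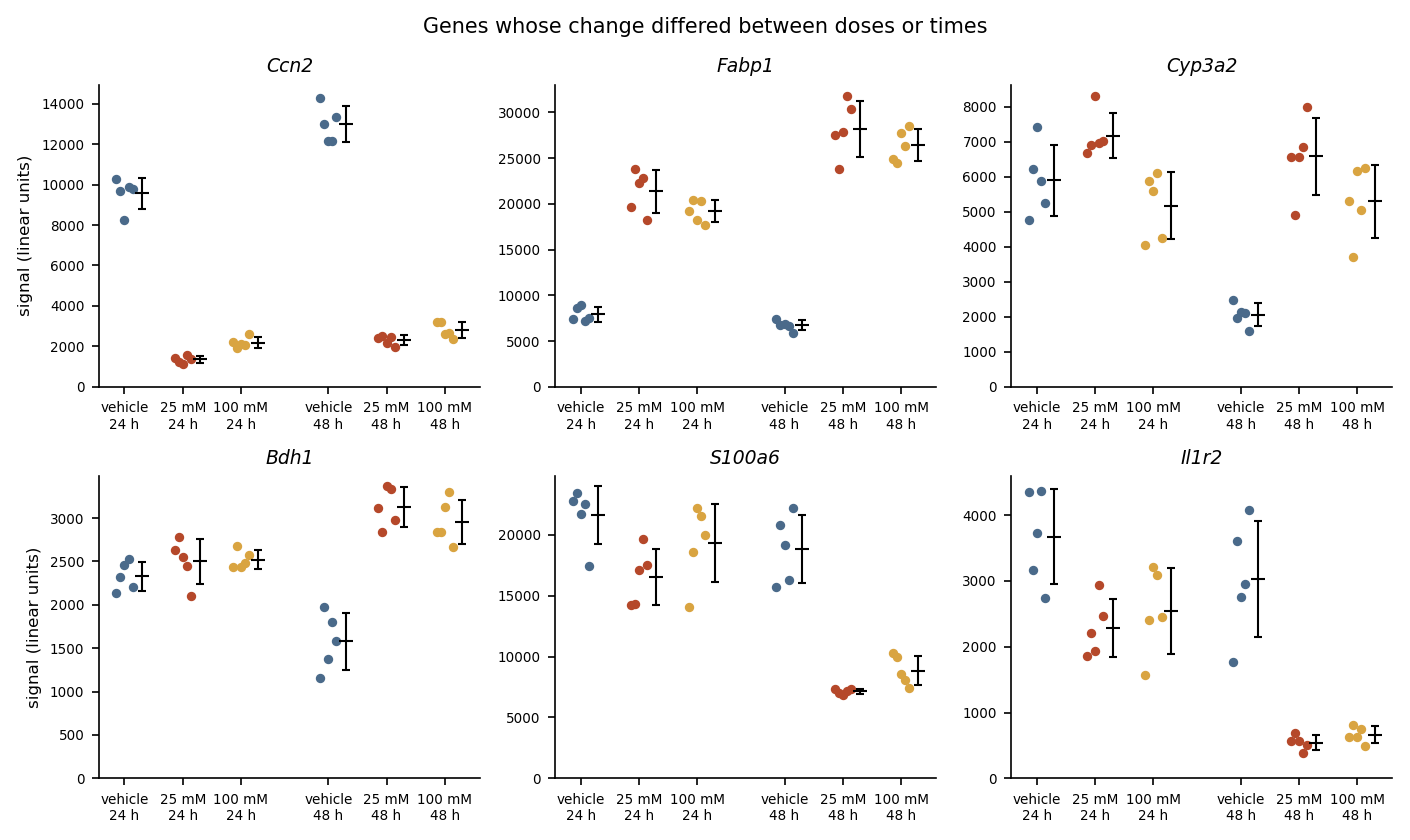
Signals (linear units; points are arrays, bars the mean ± SD of 5) of 6 genes in vehicle, DINP 25 mM and DINP 100 mM at 24 h and at 48 h. Ccn2 is lowest at 25 mM and 24 h, Cyp3a2 and Bdh1 have their lowest group in vehicle at 48 h, and S100a6 and Il1r2 are lowest in the DINP groups at 48 h.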

How the data were processed

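Labelled cRNA was put on Affymetrix rat arrays, per the labels' protocols. From the scans the authors made 1 linear intensity for each probe set with MAS5, per the submitters' processing notes, and deposited it; the version is not given in the sources used here. Every array's 2% trimmed mean lay between 1500.65 and 1500.76, so arrays had been scaled to a common mean, and a shift shared by most genes would be removed. The number of arrays, 5 a group, limits the precision. The 57 control probe sets were left out of 31099, and log2(signal + 16) was tested with limma 3.58.1 (R 4.3.3) in 1 fit of all 6 groups (24 residual degrees of freedom), with eBayes moderation along a signal trend, and adjusted by Benjamini-Hochberg over 31042 probe sets. The constant understates the change of dim genes. Python 3.11.15 and scipy 1.17.1 gave the exact permutation tests over arrays.

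Of the probe sets, 20826 had 1 gene symbol, 436 several and 9780 none here; 20758 symbols were updated by Entrez ID through RefSeq's GRCr8 table. The members, lists and tests were chosen with earlier results of these data known. Named genes were the 30 largest called rises and falls of bright genes with arrays that do not overlap, the 10 largest in moderated t each way, up to 5 called members a list, up to 10 genes differing between doses or times, up to 10 bounds, a fixed set of liver and PPARα-related genes, and the 2 largest rises and falls among unnamed probe sets. Acly, Acss2, Acss3, Agxt, Cyp27a1, Gk, Jun, Mpc2, Nr3c1, Nt5e, Plin2, Prodh, Slc25a33, Tcea3 and the dim cell type markers were added after their values were seen. Bounds were computed for up to 10 called genes, the largest changes with the mean of 1 group below 232.2. A bound is the brighter group's mean over, per array, the higher of 232.2 and the gene's own signal. The scripts were tested on simulated data. Alternatives were the constant, array centring, quantile normalization, no trend, only the compared groups, only bright probe sets, array weights, the array round as a block and leaving out each array.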

Additional observations from a re-analysis of the deposited data

Results flagged for a closer look

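Of 294 gene and group values of the genes named, 14 had an array set apart from the other 4 of its group by more than 0.71 of the group's range, 4 at 25 mM and 10 in vehicle, where chance gives about 1 in 20. At 25 mM, Mrpl44 was low at 3041 in replicate 1, Cyp3a2 high at 8300 in replicate 3 and Ephx1 and Hspe1 high at 91992 and 55175 in replicate 4. In vehicle, replicate 1 was low for Aifm2 (92.5), Cyp1a1 (41476) and Slc39a14 (5005), and replicate 3 was low for Mcm10 (140) and Ccn2 (8249). In vehicle replicate 5, Nudt7 (7436) and S100a6 (17475) were low, and Tat (30480), B4galt5 (2837) and Acly (37824) high.

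The change at 25 mM and 24 h differed by test from that at the other dose or time for 10 named genes. For Ccn2 the 100 mM arrays lay 0.682 above the 25 mM arrays. Between the times, 48 h minus 24 h, the change differed by 1.368 for Cyp3a2, 0.901 for Bdh1, 0.766 for Afm, 0.683 for Tcea3, 0.637 for Fabp1, 0.561 for Gsta3, 0.465 for Slc25a15, -0.998 for S100a6 and -1.739 for Il1r2. Of these, the calls of Tcea3 (adjusted p = 0.159), Fabp1 (0.159), Gsta3 (0.142) and Slc25a15 (0.145) ended after centring, and those of Tcea3 (0.0787), Fabp1 (0.0787) and Gsta3 (0.0566) without the trend. That of Ccn2 ended in a fit of only the compared groups (adjusted p = 0.219).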

How the results depend on the processing

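Every alternative kept the number of called probe sets at 25 mM within 1.5 times the 2173 given, and single arrays left out gave 1716 to 2122. The 2-fold changes ranged over 61 to 73 rises and 20 to 28 falls when arrays were left out. Between the doses 0 probe sets passed in a fit of only the compared groups, and 2 to 3 when an array was left out. Between the times 10 passed after centring and 8 without the trend, against 30, and 25 to 45 when an array was left out. Why these counts moved was not tested. Of the 138 named genes called at 24 h, 7 lost the call under some setting and 0 reversed. Those not yet given are Afm at 24 h (0.24; adjusted p = 0.0573 without the trend, 0.059 after quantile normalization, 0.0526 without the 25 mM array of replicate 5) and S100a6 at 24 h. The adjusted p of S100a6 was 0.177 after centring, 0.0721 without the trend, 0.0897 and 0.0935 without the 25 mM arrays of replicates 1 and 2, and 0.0542 to 0.0788 without the vehicle array of replicate 1, 2, 3 or 4. Fgf21 and Cyp1a1 passed in the fit of only the compared groups (adjusted p = 0.0374 and 0.044). The stellate marker sum differed by 0.023 without Vim, an alternative chosen after seeing the data. The labels give no replicate numbers that pair wells, and the numbers used follow the accession order; with the array round as a block 2229 probe sets passed at 24 h and 36 between the times. The median standard error was 0.118 for bright and 0.449 for dim genes, so small changes of dim genes were not detectable here.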

Other observations

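Many probe sets that carry no gene name here also changed, and more of them fell than rose. Of 4119 bright unnamed probe sets 78 rose and 249 fell at 25 mM. With each array centred on its median 100 rose and 144 fell, and after quantile normalization 103 rose and 203 fell. Of 342 bright probe sets with several symbols 39 rose and 11 fell. Over all 31042 probe sets, dim ones included, 984 rose (3.17%) and 1189 fell (3.83%) as deposited. After centring 1159 of them rose and 602 fell.

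The probe set 1367680_at had 49675, 50988, 50420, 55566 and 51989 in the 25 mM arrays, against 20641, 20825, 18620, 19246 and 23934 in the vehicle arrays. The groups were far apart, by 1.33 ± 0.08 on the log2 scale. The probe set 1371699_at had 12954, 11686, 12170, 13763 and 15601 in the 25 mM arrays, against 38208, 37932, 37447, 37614 and 42496 in the vehicle arrays. Its groups did not overlap either, with a difference of -1.55 ± 0.07. The probe set 1384474_at rose by 1.99 ± 0.52 at low signals, and 1368304_at fell by 1.58 on the log2 scale.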
